A study of Mus musculus with 6 samples.

Results

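Siglecs are receptors of the immunoglobulin superfamily that bind sialic acid, the sugar that caps many glycans on the surface of vertebrate cells. The 7 mouse genes described here were Siglec1, Siglece, Siglecf, Siglecg, Siglech, Cd33 and Cd22, and they were found by their gene symbols among the 54532 features of the count table. Their RNA was measured by RNA-seq in cultured mouse dendritic cells, the antigen-presenting cells that prime T cells. There were 3 libraries labelled Control and 3 libraries of cells given DB2313. The study used this small molecule to inhibit Spi1 (PU.1), the ETS-family transcription factor of macrophages and dendritic cells. All cells were kept in culture medium with fetal bovine serum and antibiotics. The strain, sex and age of the mice, the tissue the cells came from, and the dose and time of DB2313 were not given in the labels. The labels named dendritic cells, whereas the study described its cells as macrophages. The treated columns of the table carried the name of the target Spi1, so every direction below rests on reading them as the DB2313 libraries. Nothing in the labels said that the replicates were separate cultures or animals, so the p-values measure only the spread between these libraries.

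Most Siglecs carry inhibitory motifs in their tails. When such a receptor binds sialic acid on the same or on another cell, kinases of the Src family phosphorylate the motif and the phosphatases SHP-1 and SHP-2 are recruited, which dampens activation. Siglece, Siglecf, Siglecg and Cd22 are usually placed in this group, while mouse Cd33 differs in its tail from human CD33 and has a charged residue in its membrane segment that can pair with the activating adaptor DAP12. Siglec1 (CD169, sialoadhesin) has no such motif and works in adhesion and in the capture of sialylated particles, and Siglech signals through DAP12, encoded by Tyrobp. The family is known from leukocytes, with Siglech typical of plasmacytoid dendritic cells, Cd22 of B cells, Siglecf of eosinophils and alveolar macrophages, and Siglec1 of resident macrophages and of myeloid cells exposed to interferon.

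Total counts per library ranged from 16146743 to 19764677, so that 3 counts, used as the floor, stood for 0.15 to 0.188 CPM, the counts scaled to a common library size. Of all features, 14174 genes had enough counts to be tested with edgeR. With DB2313, 10.6% of them were called at an adjusted p under 0.05, with 4.66% higher and 5.94% lower. For 27.4% of the tested genes every DB2313 library lay on 1 side of every Control library in CPM. Over all tested genes the log2 fold change had a median of 8.2e-04. Spi1 itself was at 380.4, 345.0 and 371 CPM in the Control libraries and at 349, 328 and 309 CPM in the DB2313 libraries, and it was not called (edgeR adjusted p = 0.206), except with an offset for gene length (edgeR adjusted p = 0.0438). The summed CPM of 12 markers of conventional dendritic cells was 11690 to 11911 in Control and 10011 to 11702 in DB2313. Most of it came from Cd74, H2-Aa, Ccr7 and H2-Ab1, at Control means of 6557, 1790, 1535 and 1310 CPM. Itgax and Batf3 had Control means of 172 and 106 CPM, Xcr1 was at most at 1.32 CPM and Cd209a was near 0. The sum therefore mainly describes a few abundant genes and does not settle the cell type. Of these 12 genes 11 were tested and 10 had a log2 fold change below 0 (median -0.19). Itgax (-0.58) and Batf3 (-0.57) were called lower by edgeR and none was called higher. From 1 to 5 were called lower when a library was left out, fewest without Control replicate 1, with 4 without DB2313 replicate 1 and 5 without DB2313 replicate 3.

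DB2313 is directed at a factor that binds the PU-box, so the promoters of the Siglec genes were read first. RefSeq promoter windows (250 bases before to 50 after the start site, build GRCm38.p6) matched 6 of the 7 genes, all but Siglec1, with 7 windows in all. The core of the PU-box, GAGGAA on either strand, was present in at least 1 window of 5 of these 6 genes, while 31.3% of 27025 genes held it. The exception was Cd22. A longer ETS-IRF composite motif, GGAA and GAAA with 2 bases of any kind between them, was in none of the 7 windows and in 2.72% of all 32851 windows. The windows of Siglecf, Cd33 and Siglece are shown because the first pair shared long runs and the last held the most cores. Capitals mark GAGGAA or its reverse complement TTCCTC, and in Siglecf and Cd33 also the shared runs. They lie at chr7:43351091-43351390 (Siglecf, plus strand), chr7:43533122-43533421 (Cd33, minus strand) and chr7:43660112-43660411 (Siglece, minus strand).
Siglecf: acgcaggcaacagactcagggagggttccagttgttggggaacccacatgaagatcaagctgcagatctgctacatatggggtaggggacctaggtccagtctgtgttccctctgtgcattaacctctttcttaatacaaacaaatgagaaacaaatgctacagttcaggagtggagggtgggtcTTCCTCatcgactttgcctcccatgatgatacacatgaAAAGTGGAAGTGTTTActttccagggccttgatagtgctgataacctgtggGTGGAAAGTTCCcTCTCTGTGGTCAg
Cd33: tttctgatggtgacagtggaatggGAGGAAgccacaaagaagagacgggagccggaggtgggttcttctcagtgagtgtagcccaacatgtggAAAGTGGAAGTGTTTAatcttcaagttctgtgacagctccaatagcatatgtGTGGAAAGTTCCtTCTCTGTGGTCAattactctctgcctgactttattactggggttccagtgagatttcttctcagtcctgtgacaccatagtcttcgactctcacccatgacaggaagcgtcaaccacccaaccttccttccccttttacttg
Siglece: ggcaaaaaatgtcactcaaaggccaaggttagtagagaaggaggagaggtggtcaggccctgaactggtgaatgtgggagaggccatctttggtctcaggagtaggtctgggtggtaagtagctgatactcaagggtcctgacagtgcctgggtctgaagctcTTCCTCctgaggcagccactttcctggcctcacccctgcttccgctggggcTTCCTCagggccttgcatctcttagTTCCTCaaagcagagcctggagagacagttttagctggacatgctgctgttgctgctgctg

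Counting the start site as 0 and giving the leftmost base, the core was at -65 in Siglecf, at -226 in Cd33, at -4 in Siglech, at -241 and -212 in one of the windows of Siglecg, and at -87, -36 and -11 in Siglece. Siglecf and Cd33 both lie on chromosome 7, with Siglecg between them. They shared the 16 bases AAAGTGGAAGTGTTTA at -27 and -157 respectively, and this run was found in 2 of 32851 windows, those of these 2 genes. A run of 12 bases, GTGGAAAGTTCC, was also found in these 2 windows only, and another of 12 bases, TCTCTGTGGTCA, in 9 windows of 8 genes. No other pair of the 15 compared shared 12 bases or more. These runs were noticed after the sequences were seen. A match is a description of letters and not of binding.

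Of the 7 Siglec genes, 6 were tested, Siglec1 was called higher with DB2313, Siglecf was called lower, and 4 were not called. The counts of 1 higher and 1 lower stood beside 4.66% and 5.94% of all tested genes. The fitted log2 fold change was below 0 for 5 of the 6 genes, and the median was -0.26. The groups did not overlap for Siglece, Siglecf and Cd22, 3 of 6 genes, beside 27.4% of all tested genes. An unadjusted p under 0.05 was found for 5 of the 6, all but Siglecg, beside 23.3% of all tested genes by edgeR.

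**Figure D1:**
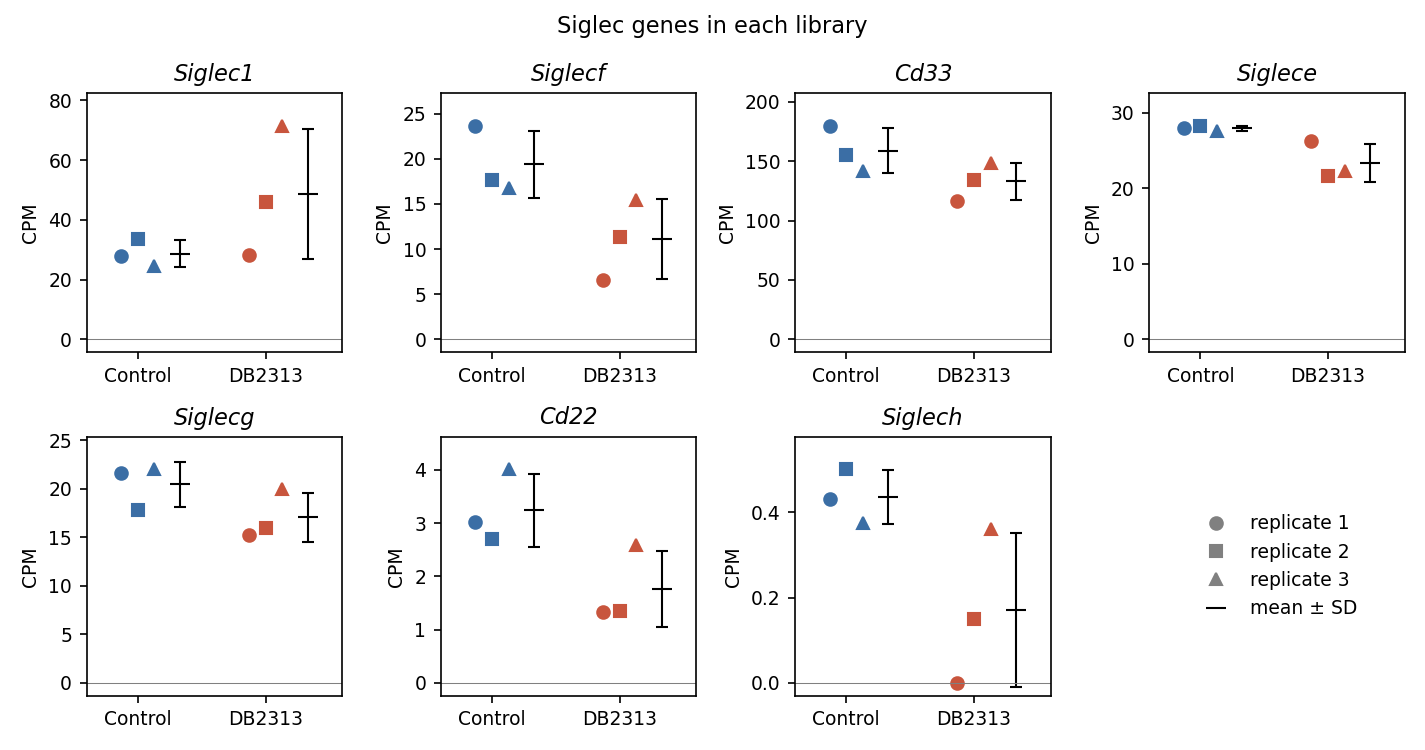
Level of each Siglec gene in CPM (vertical axes, linear, each panel with its own scale) in the 3 Control (blue) and 3 DB2313 (red) libraries, with replicates as circles, squares and triangles and the mean ± SD as bars. Siglec1 ranged from 28.2 to 71.6 CPM among the DB2313 libraries, and Siglecf was below every Control library in all 3 of them.

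Siglec1 encodes the large adhesive receptor of macrophages that holds sialylated vesicles and viruses. It lies on chromosome 2 at 131069220 to 131086765 (GRCm38, minus strand; ENSMUSG00000027322). Siglec1 was at 27.9, 33.6 and 24.5 CPM in Control replicates 1 to 3 and at 28.2, 45.9 and 71.6 CPM in DB2313 replicates 1 to 3. One treated library thus lay within the range of the Control libraries and the other pair above it. The mean was 28.7 ± 4.56 CPM (SD, n = 3) in Control and 48.6 ± 21.8 CPM (SD, n = 3) with DB2313, a fold of 1.69 (log2 fold change 0.76 ± 0.23 SE, edgeR adjusted p = 0.0458). The size of the change rested on DB2313 replicate 3. Siglec1 had a log2 fold change of 0.38 without that library (edgeR adjusted p = 0.0824) and of 1.03 without DB2313 replicate 1 (edgeR adjusted p = 4.5e-06). Leaving out DB2313 replicate 2 gave 0.80 (edgeR adjusted p = 0.104), and leaving out Control replicate 1, 2 or 3 gave 0.74, 0.89 and 0.66, none of them called. DESeq2 did not call Siglec1 (adjusted p = 0.241). Parts of Siglec1 transcripts, of 100 to 179 bp, recurred at 95% identity or more in transcripts of 36 other genes, and how reads with several matches were counted was not given in the sources used here.

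Siglec1 is known as an interferon-inducible gene, so 20 interferon-stimulated genes were set beside it. Of these 20 genes 11 were called higher and 1 lower, beside 4.66% and 5.94% of all tested genes. The median log2 fold change was 0.38 against 8.2e-04 over all tested genes. DESeq2 also called 11 higher and 1 lower. Without DB2313 replicate 3 edgeR called 10 higher and 3 lower, and without Control replicate 2 it called 6 higher and none lower. Ifit3, an RNA-binding antiviral protein, was at 11.5, 11.4 and 11.5 CPM in Control and 24.0, 22.7 and 31.1 CPM with DB2313 (log2 fold change 1.18, edgeR adjusted p = 4.9e-05). Oasl1, of the oligoadenylate synthetase family, was at 16.2, 17.2 and 16.9 CPM in Control and 36.1, 37.0 and 44.0 CPM with DB2313 (log2 fold change 1.22, edgeR adjusted p = 4.7e-06). In both genes all 3 DB2313 libraries lay above the Control libraries, unlike Siglec1, for which DB2313 replicate 1 did not. Also called higher were Ifit1 (1.03), Isg15 (0.70), Rsad2 (0.68), Oas2 (0.59), Oasl2 (0.55), Rtp4 (0.44), Irf7 (0.42) and Oas1a (0.26), in log2 fold change. Ifi44 was called lower (log2 fold change -0.89). The call of Oas1a was lost in 8 of 15 alternatives, that of Ifi44 in 4, those of Oas2 and Irf7 in 2 each and that of Rtp4 in 1. Ifit1, Ifit3, Isg15, Rsad2, Oasl1 and Oasl2 kept their calls in all 15. DB2313 replicate 3, the library with the most Siglec1, was the highest treated library for 17 of the 20 genes, and for 10 of the 11 called higher. The summed level of the 20 genes was 1021 to 1050 CPM in Control, 1189 and 1213 CPM in DB2313 replicates 1 and 2 and 1375 CPM in DB2313 replicate 3. The part of the interferon-stimulated genes in the Siglec1 result was not tested.

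More markers of resident and CD169-positive macrophages were called lower than higher. Of 10 such genes 7 were tested, and the median log2 fold change was -0.33. Of those tested, 1 was called higher and 4 lower, beside 4.66% and 5.94% of all tested genes. These counts depended on single libraries. Without Control replicate 1, and likewise without DB2313 replicate 2, edgeR called 1 lower and none higher. It called 2 lower and none higher without Control replicate 2, 3 lower and none higher without Control replicate 3, 3 lower and 2 higher without DB2313 replicate 1, and 5 lower and none higher without DB2313 replicate 3. Mrc1, the mannose receptor, was at 159, 125 and 106 CPM in Control and 66.2, 77.7 and 94.5 CPM with DB2313 (log2 fold change -0.71 ± 0.14 SE, edgeR adjusted p = 0.00325). Csf1r, the receptor for macrophage colony-stimulating factor, and the scavenger receptors Cd163 and Cd5l were also called lower. Cd163 had 36, 20 and 23 counts in Control and 0, 5 and 8 with DB2313. Cd5l had 34, 16 and 14 counts in Control and 7, 3 and 5 with DB2313. Both were near the floor with DB2313 and had enough counts to be tested only because of the Control libraries. The Fc receptor Fcgr1 was called higher (log2 fold change 0.26, edgeR adjusted p = 0.0477). The call of Csf1r was lost in 7 of 15 alternatives, and Mrc1 kept its call in all 15. The summed level was 1029 to 1157 CPM in Control and 815 to 1079 CPM with DB2313, and the defining genes Timd4, Vsig4 and Clec4f were at or near 0 in all 6 libraries. In bulk RNA, fewer cells of a type and less RNA per cell cannot be told apart.

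**Figure D2:**
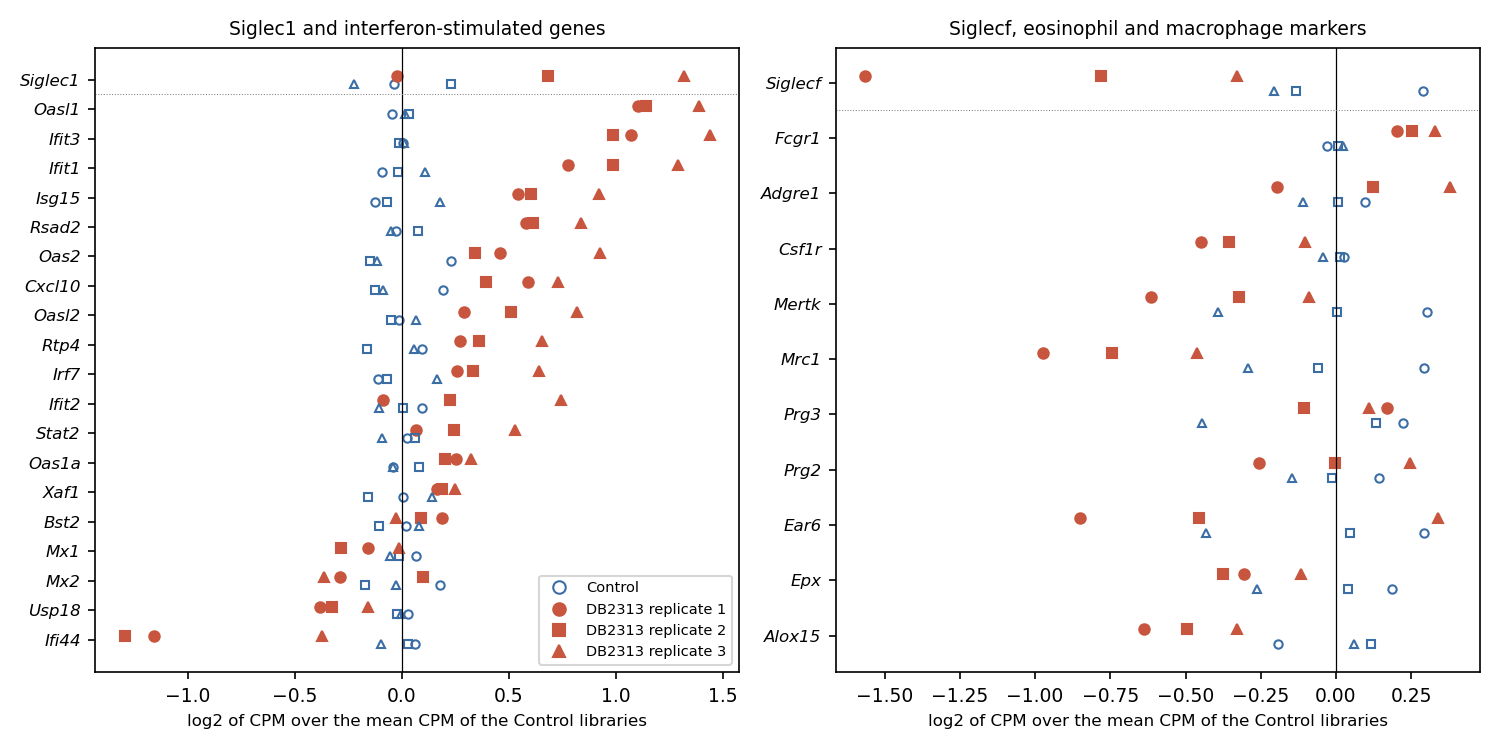
Log2 of CPM over the mean CPM of the Control libraries (horizontal axes) for Siglec1 with interferon-stimulated genes (left) and for Siglecf with markers of eosinophils and macrophages (right). Open blue symbols are Control and filled red symbols DB2313, with circles, squares and triangles for replicates 1, 2 and 3. The triangles lie furthest right among the red symbols for Siglec1 and for 17 of the interferon-stimulated genes.

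Siglecf encodes the inhibitory receptor by which eosinophils and alveolar macrophages are recognised in the mouse. It lies on chromosome 7 at 43351341 to 43359531 (GRCm38, plus strand; ENSMUSG00000039013). Siglecf was at 23.7, 17.7 and 16.8 CPM in Control replicates 1 to 3 and at 6.56, 11.3 and 15.4 CPM in DB2313 replicates 1 to 3. The groups did not overlap, with a narrow gap between DB2313 replicate 3 and Control replicate 3. The mean was 19.4 ± 3.73 CPM (SD, n = 3) in Control and 11.1 ± 4.45 CPM (SD, n = 3) with DB2313, a fold of 0.573 (log2 fold change -0.80 ± 0.22 SE, edgeR adjusted p = 0.0312). Siglecf had a log2 fold change of -0.54 without DB2313 replicate 1 (edgeR adjusted p = 0.0253) and of -1.10 without DB2313 replicate 3 (edgeR adjusted p = 1.9e-04). It was not called without DB2313 replicate 2 (log2 fold change -0.82) or without Control replicate 1, 2 or 3 (-0.63, -0.86 and -0.90). DESeq2 did not call Siglecf (adjusted p = 0.172), while limma-voom did (adjusted p = 0.0221). No transcript of another gene matched Siglecf at 95% identity over 100 bp, the nearest being Siglecg with 88.2% over 178 bp.

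Eosinophil markers were present in these libraries. All 8 were tested, 1 was called lower and none higher, beside 5.94% and 4.66% of all tested genes. The median log2 fold change was -0.25. The gene called was Alox15, a lipoxygenase that alternatively activated macrophages also make, at 31.4, 39.0 and 37.4 CPM in Control and 23.1, 25.5 and 28.6 CPM with DB2313 (edgeR adjusted p = 0.0115). The granule protein genes Prg2 and Epx were not called (edgeR adjusted p = 0.972 and 0.184). The summed level of the 8 genes was 217 to 262 CPM in Control and 191, 218 and 264 CPM in DB2313 replicates 1, 2 and 3. Among the treated libraries, replicate 3 was the highest for 7 of these 8 markers, as it was for Siglecf. That order was not particular to eosinophil markers. Replicate 3 was also the highest for 6 of 7 tested resident macrophage markers and 17 of 20 interferon-stimulated genes. It was the highest for 1 of 10 neutrophil markers and 0 of 8 T cell markers. The share over all tested genes was not counted. Of 8 markers of alveolar macrophages, 6 were tested, with Marco called higher (log2 fold change 1.26) and Car4 and Fabp4 called lower (-1.92 and -1.05). Over all tested genes 4.66% were called higher and 5.94% lower. Marco and Fabp4 kept their calls in all 15 alternatives, whereas that of Car4 was lost in 8. Car4 had 28, 15 and 19 counts in Control and 6, 11 and 1 with DB2313. It had enough counts to be tested only because of the Control libraries. The summed level of the 8 genes was 3695 to 4143 CPM in Control and 3931 to 4552 CPM with DB2313. Most of this sum was Chil3, with a mean CPM of 3746 (Control) and 4003 (DB2313), so it says little about the other markers. Fabp1 and Krt79 had means under 1 CPM in both groups. The part of these markers in the Siglecf result was not tested.

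Because Siglec1 and Siglecf moved in opposite directions, their counts were set against each other within each library, which needs no scaling. There were 1.18, 1.90 and 1.46 Siglec1 counts for each Siglecf count in the Control libraries, and 4.30, 4.07 and 4.63 in the DB2313 libraries. The treated libraries, which differed most among themselves in either gene alone, thus lay close together in this ratio of counts. The ratio was chosen after the values were seen and is given with no test, since 3 libraries against 3 cannot give an exact permutation p below 0.1.

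Cd33, Siglece and Siglecg are receptors of myeloid cells and B cells, and none of them was called. Cd33, the myeloid receptor that gives the CD33-related Siglecs their name, was at 180.1, 155.0 and 142 CPM in Control and at 117, 135 and 148 CPM with DB2313. The groups overlapped, since DB2313 replicate 3 lay above Control replicate 3. The log2 fold change was -0.26 ± 0.10 SE and the fold 0.838 (edgeR adjusted p = 0.121). Cd33 was called without DB2313 replicate 3, at a log2 fold change of -0.34 (edgeR adjusted p = 0.0092). Cd33 lies on chromosome 7 at 43524216 to 43544428 (GRCm38, minus strand; ENSMUSG00000004609), and its RefSeq promoter window lies within that span.

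Siglece encodes an inhibitory receptor of neutrophils, macrophages and dendritic cells that recruits SHP-1. Siglece was at 27.9, 28.3 and 27.5 CPM in Control, a spread of 0.378 CPM (SD), and at 26.2, 21.7 and 22.2 CPM with DB2313. All 3 treated libraries lay below the Control libraries, but only narrowly in replicate 1. The log2 fold change was -0.26 ± 0.10 SE and the fold 0.837 (edgeR adjusted p = 0.146). Siglece lies on chromosome 7 at 43651070 to 43660161 (GRCm38, minus strand; ENSMUSG00000030474).

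Siglecg encodes the receptor that restrains B-1 cells and binds the sialylated glycoprotein CD24. Siglecg was at 21.6, 17.8 and 22.02 CPM in Control and at 15.2, 16.0 and 19.9 CPM with DB2313. The groups overlapped, with DB2313 replicate 3 above Control replicate 2. The log2 fold change was -0.26 ± 0.13 SE and the fold 0.833 (edgeR adjusted p = 0.248), and without DB2313 replicate 3 it was -0.39 and called (edgeR adjusted p = 0.0489). Siglecg lies on chromosome 7 at 43408204 to 43418358 (GRCm38, plus strand; ENSMUSG00000030468). Transcripts of Gm29791 and Plscr2 recurred in it at 95% identity or more, in stretches of up to 382 bp, so some of its reads could be shared. Of the other mouse Siglecs, Mag, the myelin-associated glycoprotein, was at 15.3, 18.3 and 15.2 CPM in Control and at 14.3, 13.0 and 12.02 CPM with DB2313 and was not called (edgeR adjusted p = 0.161), and Siglec15 had at most 1 count in a library.

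**Figure D3:**
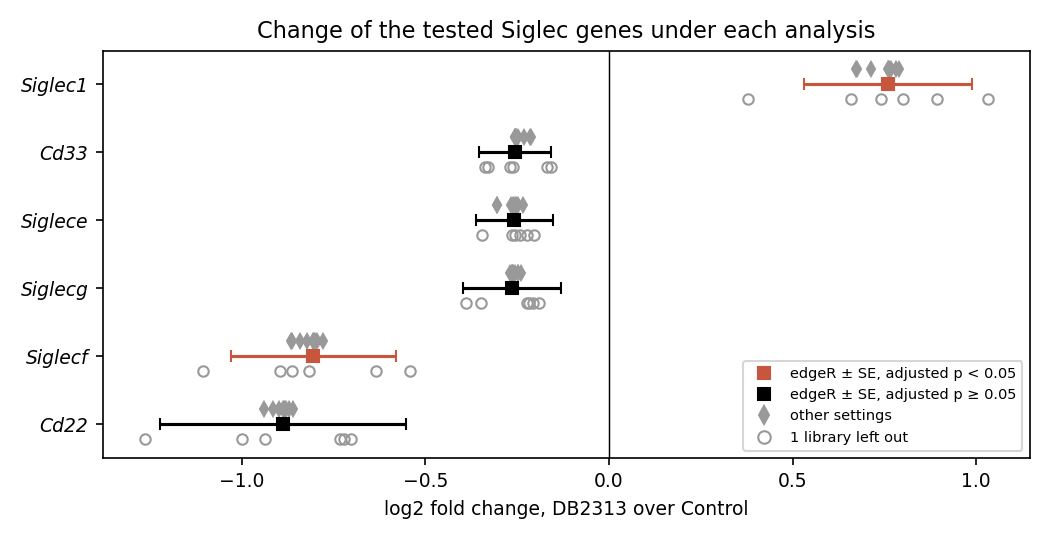
Log2 fold change, DB2313 over Control (horizontal axis), of the 6 tested Siglec genes, with the edgeR estimate ± SE as a square (red where the adjusted p was under 0.05), 9 other settings as diamonds and the 6 fits with 1 library left out as open circles. Siglec1 stayed above 0 and the other genes stayed below 0 in every fit, and the open circles of Siglec1 reached from 0.38 to 1.03.

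Cd22, the inhibitory co-receptor of the B cell receptor, was scarce. It had 49, 43 and 64 counts in Control and 22, 27 and 43 counts with DB2313, or 3.01, 2.70 and 4.01 CPM against 1.34, 1.35 and 2.58 CPM. The groups did not overlap, but DB2313 replicate 3 was close to Control replicate 2. The log2 fold change was -0.89 ± 0.33 SE and the fold 0.541 (edgeR adjusted p = 0.113), and without DB2313 replicate 3 it was -1.26 and called (edgeR adjusted p = 0.0207). Cd22 lies on chromosome 7 at 30865402 to 30880342 (GRCm38, minus strand; ENSMUSG00000030577). It overlaps the antisense gene Gm29439, which shares up to 509 bp with it, and as the strandedness of the counting was not stated their reads cannot be told apart. B cell markers were nearly absent, with 8 of 10 genes under 1 CPM, among them Ms4a1, and 2 tested, Cd79b and Ighm, neither of them called by edgeR or DESeq2 (2 at an unadjusted p under 0.05). Their summed level was 34.5 to 39.5 CPM in Control and 40.9 to 47.1 CPM with DB2313, most of it from Ighm.

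Siglech, the receptor of plasmacytoid dendritic cells, was near the floor and was not tested. It had 7, 8 and 6 counts in Control and 0, 3 and 6 counts with DB2313. The last of these equalled the lowest Control library in counts, and no difference was detectable at this depth (edgeR without the filter on low counts, adjusted p = 0.613). Siglech lies on chromosome 7 at 55768178 to 55778925 (GRCm38, plus strand; ENSMUSG00000051504). Of 12 markers of plasmacytoid dendritic cells, 5 had a mean under 1 CPM over all libraries, among them Cd300c, and 8 were tested. Klk1 was at 0 in every library. Cd300c was called higher, at 0.123 to 0.439 CPM over the Control libraries and 1.58 to 1.66 CPM over the DB2313 libraries, and none was called lower. Over all tested genes 4.66% were called higher and 5.94% lower. Cd300c had 2, 2 and 7 counts in Control, near the floor, and 26, 33 and 27 with DB2313. It had enough counts to be tested only because of the DB2313 libraries. The markers that carried the summed level of 429 to 481 CPM in Control and 385 to 441 CPM with DB2313 were Irf8, Spib and Ptprcap, genes that other leukocytes also express.

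To compare the receptors with each other, counts were divided by the deposited gene length and given as RPKM, which is CPM per kilobase. In Control the order was Cd33 (20.5 ± 2.48 RPKM, SD, n = 3), Siglece (15.1 ± 0.204), Siglecf (6.95 ± 1.34), Siglecg (4.26 ± 0.481), Siglec1 (4.01 ± 0.639), Cd22 (0.643 ± 0.136) and Siglech (0.129 ± 0.0186). Siglecg and Siglec1 were the only neighbours in this order whose libraries overlapped. With DB2313 the order was Cd33 (17.1 ± 2.02 RPKM, SD, n = 3), Siglece (12.6 ± 1.35), Siglec1 (6.80 ± 3.05), Siglecf (3.98 ± 1.59), Siglecg (3.55 ± 0.526), Cd22 (0.349 ± 0.142) and Siglech (0.0503 ± 0.0535), and Siglec1 overlapped with Siglecf and Siglecf with Siglecg. Siglec1 therefore moved from the fifth to the third place in the order of means, though not beyond the spread of its new neighbour. The order of Siglecf and Siglecg depended on the length used. With the length of the principal coding transcript, Siglecg was at 7.97 RPKM and Siglecf at 7.44 RPKM in Control, and their libraries overlapped. With DB2313 that length put Siglecg (6.64 RPKM) above Siglecf (4.26 RPKM) with no overlap, and Siglec1 (7.60 RPKM) overlapped with Siglecg.

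**Figure D4:**
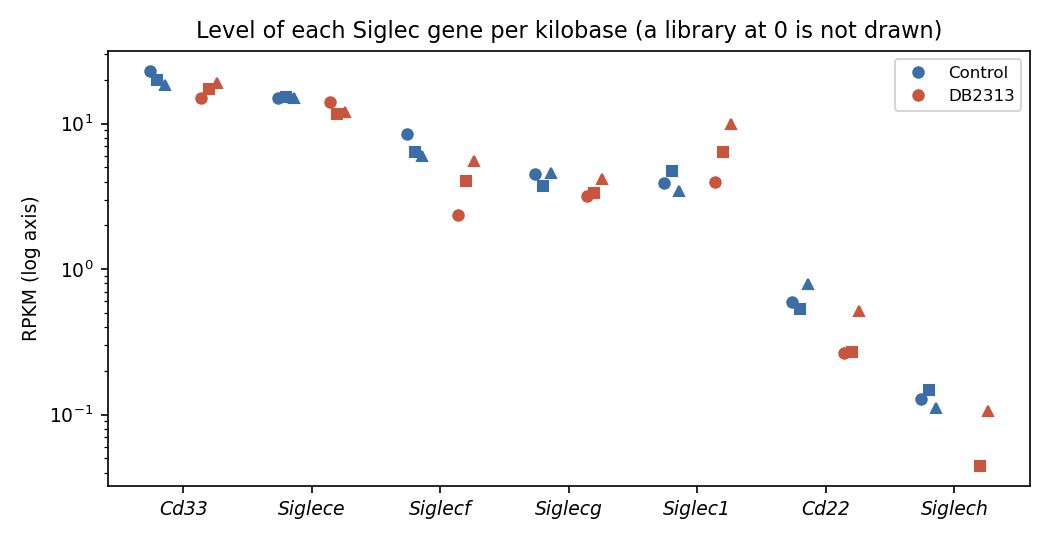
Level of each Siglec gene in RPKM (vertical axis, log scale) in the 3 Control (blue) and 3 DB2313 (red) libraries, with circles, squares and triangles for replicates 1, 2 and 3. Cd33 and Siglece lead in both groups, at mean levels of 20.5 and 15.1 RPKM in Control, and Siglech is lowest, with DB2313 replicate 1 at 0 and not drawn.

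Summed over the 7 genes, the level was 55.9, 50.7 and 48.1 RPKM in Control and 39.0, 43.1 and 51.4 RPKM with DB2313. The groups overlapped, since DB2313 replicate 3 lay between the Control libraries. Siglec1 made up 6.99%, 9.27% and 7.13% of this sum in Control and 10.1%, 14.9% and 19.5% with DB2313, with no overlap. In DB2313 replicate 1, however, Siglec1 itself was at 3.94 RPKM, within the Control range of 3.43 to 4.70 RPKM. There its share was higher beside a sum below that of every Control library. The share of Siglecf was 15.2%, 12.5% and 12.5% in Control and 6.03%, 9.37% and 10.8% with DB2313, again with no overlap. Cd33 took 37.1% to 41.5% in all 6 libraries.

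The ligands of Siglecs depend on the enzymes that make sialic acid and attach it to glycans. Of 6 genes for the synthesis, activation and transport of sialic acid, 5 were tested (median log2 fold change 0.06). Of those tested, 1 was called higher and 1 lower, beside 4.66% and 5.94% of all tested genes. Cmas, which activates sialic acid to CMP-sialic acid, was at 59.2, 59.8 and 65.9 CPM in Control and at 102, 96.4 and 87.7 CPM with DB2313 (log2 fold change 0.63 ± 0.08 SE, fold 1.54, edgeR adjusted p = 1.9e-04). Nans, which makes the phosphorylated precursor of sialic acid, was at 174, 175 and 187 CPM in Control and at 145, 129 and 112 CPM with DB2313 (log2 fold change -0.47 ± 0.09 SE, fold 0.722, edgeR adjusted p = 0.00268). These called genes thus moved in opposite directions, in both with no overlap between the groups. Gne, of the same list, had a log2 fold change of 0.17 with no overlap and was not called (edgeR adjusted p = 0.255). Slc35a1 (0.06) and Cmah (-0.49) were not called either. Gne, Slc35a1 and Cmah were named after their values were seen.

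Of 20 sialyltransferase genes 14 were tested, 1 was called higher and 2 lower, beside 4.66% and 5.94% of all tested genes. The median log2 fold change was -0.08. St3gal5, the GM3 ganglioside synthase, was at 54.0, 60.0 and 64.5 CPM in Control and at 106, 100.1 and 107 CPM with DB2313 (log2 fold change 0.81 ± 0.08 SE, fold 1.75, edgeR adjusted p = 2.1e-05). St8sia6, which adds sialic acid onto sialic acid, was at 7.50, 7.90 and 7.78 CPM in Control and at 2.31, 3.76 and 2.34 CPM with DB2313 (log2 fold change -1.45 ± 0.23 SE, fold 0.367, edgeR adjusted p = 7.7e-04). St8sia4, a polysialyltransferase, was at 167, 190.4 and 167 CPM in Control and at 123, 135 and 145 CPM with DB2313 (log2 fold change -0.38 ± 0.08 SE, fold 0.766, edgeR adjusted p = 0.00673). Among the called genes only, the one that rose uses a glycolipid and those that fell extend chains of sialic acid. St6galnac3 had a log2 fold change of 0.68 with no overlap between the groups and was not called (edgeR adjusted p = 0.0562). St8sia1 was at 0.10 and not called (edgeR adjusted p = 0.749). Nor was St6gal1, which makes the linkage that CD22 binds (edgeR adjusted p = 0.520). St6galnac3, St8sia1 and St6gal1 were named after their values were seen. Of 8 genes for the removal or breakdown of sialic acid 6 were tested and none was called by edgeR, DESeq2 or limma-voom, with an unadjusted edgeR p under 0.05 in 0 of them. The most abundant of these, Ctsa, which protects the lysosomal sialidase Neu1, was at a mean of 374 CPM in both groups, with SDs of 7.18 (Control) and 1.00 (DB2313) CPM (n = 3; edgeR adjusted p = 0.993).

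**Figure D5:**
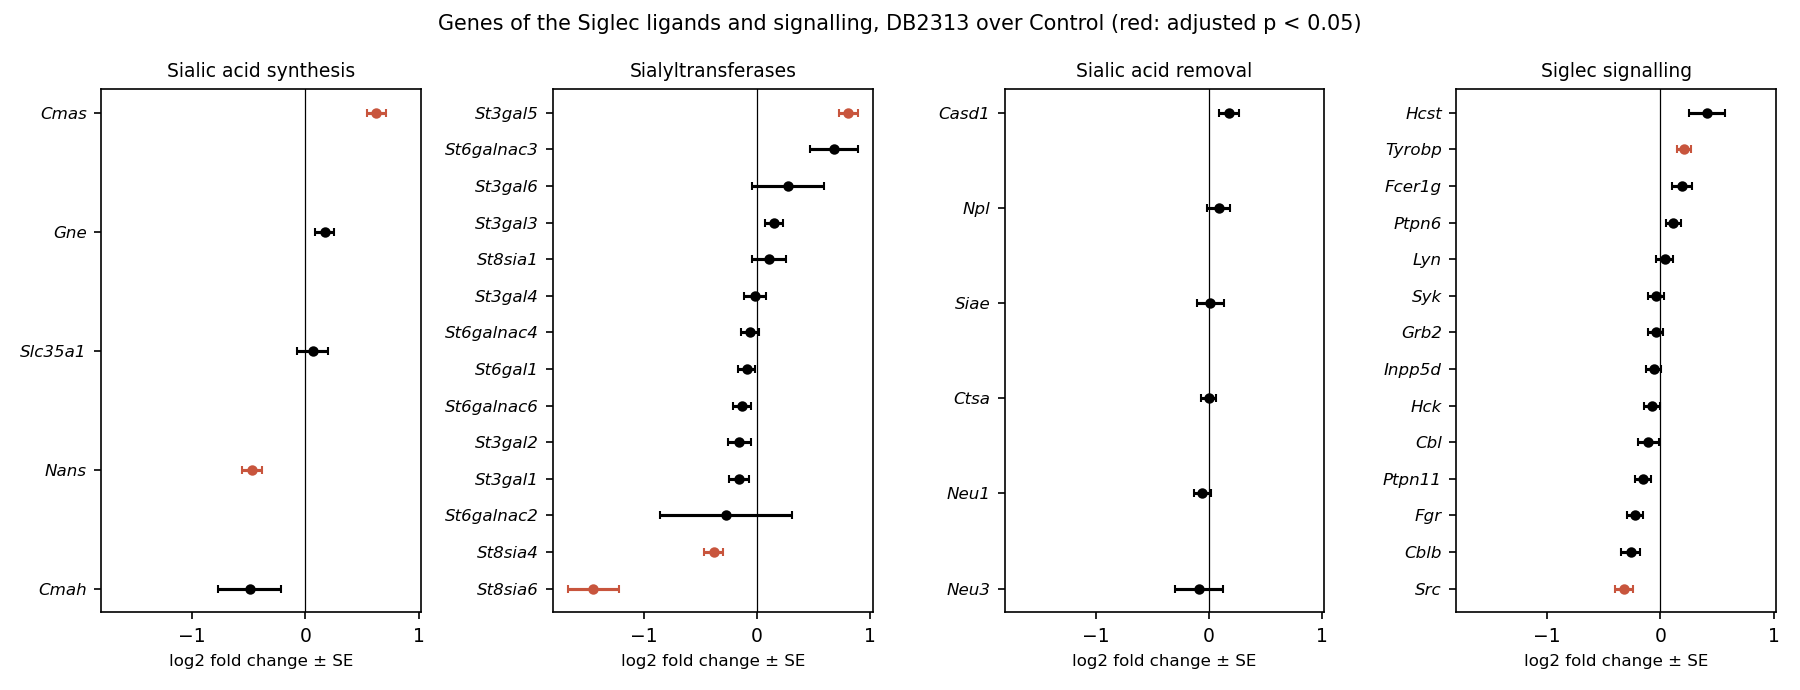
Log2 fold change ± SE, DB2313 over Control (horizontal axes), of the tested genes for sialic acid synthesis, sialyltransferases, sialic acid removal and Siglec signalling, with genes at an edgeR adjusted p under 0.05 in red. Cmas and St3gal5 lie to the right at 0.63 and 0.81, and St8sia6 lies furthest left at -1.45.

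Among 8 glycoproteins described as Siglec ligands, all tested, 1 was called higher and none lower, beside 4.66% and 5.94% of all tested genes. The median log2 fold change was 0.08. The called gene was Spn, or CD43, a mucin-like protein rich in sialic acid. Spn was at 181, 185 and 183 CPM in Control and at 206, 217 and 226 CPM with DB2313 (log2 fold change 0.24 ± 0.07 SE, edgeR adjusted p = 0.0311). The call was lost in 5 of 15 alternatives, with adjusted p-values of up to 0.148.

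Siglec tails act through adaptors, kinases and phosphatases. Of 14 such genes, all tested, 1 was called higher and 1 lower, beside 4.66% and 5.94% of all tested genes. The median log2 fold change was -0.05. Tyrobp, whose product DAP12 pairs with activating Siglecs, was at 400.4, 402 and 410.5 CPM in Control and at 448, 478 and 476 CPM with DB2313 (log2 fold change 0.21 ± 0.06 SE, edgeR adjusted p = 0.0494). That call was lost in 7 of 15 alternatives, among them an offset for gene length (edgeR adjusted p = 0.348). Src, the kinase that names the family acting on inhibitory motifs, was at 49.5, 49.7 and 50.6 CPM in Control and at 41.1, 38.0 and 40.8 CPM with DB2313 (log2 fold change -0.32 ± 0.08 SE, edgeR adjusted p = 0.0205), a call lost in 5 of 15 alternatives. The phosphatase genes Ptpn6 (SHP-1), Ptpn11 (SHP-2) and Inpp5d (SHIP-1), named after their values were seen, had log2 fold changes of 0.11, -0.16 and -0.06 and were not called. Nor was Syk, the kinase downstream of DAP12 (log2 fold change -0.04, edgeR adjusted p = 0.803).

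For each called Siglec the 3 protein-coding genes with the most similar pattern were sought, by Pearson's r of log2 CPM over the 6 libraries among genes with a mean of at least 10 CPM. For Siglec1 they were Baz1b (r = 0.993), Acly (r = 0.991) and Fam126a (r = 0.988). For Siglecf they were Tns1 (r = 0.994), Ilvbl (r = 0.993) and March1 (r = 0.992). None of these 6 genes was called. Acly, the enzyme that makes cytosolic acetyl-CoA, was at 272, 288 and 262 CPM in Control and at 277, 329 and 360.5 CPM with DB2313, so it shared with Siglec1 the order of the libraries but with a smaller log2 fold change of 0.23. March1, a ubiquitin ligase that acts on MHC class II, was at 49.8, 43.5 and 42.0 CPM in Control and at 30.4, 38.5 and 42.3 CPM with DB2313, the same order as Siglecf except that DB2313 replicate 3 lay just above Control replicate 3. The genes were the most alike of all that were compared, and the libraries share their scaling, so these values describe the pattern only.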

How the data were processed

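RNA of 3 Control and 3 DB2313 samples was extracted with Trizol and sequenced from standard Illumina libraries, per the labels. The table deposited by the authors held unnormalised whole-number counts of reads for every gene, together with gene lengths in bp. The submitters' processing notes named CASAVA 1.8, HISAT2 2.0.5 and featureCounts 1.5.0-p3, whereas the methods of the study named LifeScope. The genome build was not given in the sources used here. The gene spans equalled those of GENCODE M21 for 98.33% of 54409 common identifiers, and coordinates are therefore GRCm38. Columns were matched to samples by short names, with replicate numbers 1 to 3. The Control ones were matched by an abbreviation of the cell type and the treated ones by Spi1.

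Counts were tested with edgeR 4.0.16 (R 4.3.3) by its quasi-likelihood test (TMM scaling, filterByExpr, group as the only term) with Benjamini-Hochberg adjustment over the 14174 genes tested. CPM used TMM-scaled library sizes, and RPKM was CPM per kilobase of the deposited length. On simulated counts of this comparison the test found 78.1% of 196 genes changed 2-fold and made 14 false calls, with 13944 genes tested in all. Near copies were searched with blastn 2.17.0 among GENCODE M21 transcripts. Alternatives were DESeq2 1.42.0, limma-voom (limma 3.58.1), other scalings and filters, an offset for gene length (lowess, span 0.3), the replicate number as a block, and omission of each library. The Siglec genes and the 16 gene lists were chosen with earlier results of these data known. Named from a list were the genes called at an adjusted p under 0.05, otherwise the gene with the highest mean CPM. Genes of the marker lists were named after their values were seen. Values of some listed genes are not reported here. Reads carried no molecular identifiers, so the floor of 3 counts covers counting error only.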

Additional observations from a re-analysis of the deposited data

How the results depend on the processing

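The direction of the 6 tested Siglec genes was the same in all 15 alternatives, but the calls were not. Siglec1 kept its call in 7 and Siglecf in 9. With scaling by library totals the log2 fold change was 0.79 for Siglec1 (edgeR adjusted p = 0.0549) and -0.78 for Siglecf (edgeR adjusted p = 0.0520). DESeq2 gave 0.76 (adjusted p = 0.241) and -0.80 (adjusted p = 0.172), and limma-voom gave 0.67 for Siglec1 (adjusted p = 0.0958). Without the filter on low counts Cd33 was called at -0.25 (edgeR adjusted p = 0.0422), and with the gene length offset Siglece was called at -0.30 (edgeR adjusted p = 0.0485). With 1 library left out, the log2 fold change ranged from 0.38 to 1.03 for Siglec1, -1.10 to -0.54 for Siglecf, -0.35 to -0.20 for Siglece, -0.39 to -0.19 for Siglecg, -0.34 to -0.16 for Cd33 and -1.26 to -0.70 for Cd22. The number of genes called ranged from 328 to 1097 higher and from 411 to 1311 lower, fewest without DB2313 replicate 2 and most without DB2313 replicate 3. Without Control replicate 1, 2 or 3 there were 361, 360 and 383 higher and 485, 436 and 471 lower. The cause was not tested.

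Deviations of libraries with the same number correlated at -0.020, -0.017 and -0.18, so the numbers were not taken as pairs. With the replicate number as a block Siglec1 was at 0.68 (edgeR adjusted p = 0.0356) and Siglecf at -0.84 (edgeR adjusted p = 0.0267), both still called, and 502 genes were higher and 629 lower. Changes of sign were seen for genes near 0. Ctsa was at 0.0022 with DESeq2 size factors and with DESeq2, 0.022 with library totals, 0.0079 without the filter, 0.015 with the length offset, with or without the block, and -0.0066 to 0.015 with 1 library left out. Syk was at 0.023 with the length offset, with or without the block, and -0.081 to 0.018 with 1 library left out. Levels with the principal transcript length were added after seeing the data. Depth limits Siglech, at 0 to 8 counts per library.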

Other observations

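The T cell and neutrophil markers also ordered the DB2313 libraries. All 8 T cell markers tested and 8 of 10 neutrophil markers were highest in DB2313 replicate 1 among the treated libraries, the library with the least Siglec1 and Siglecf. The summed level of the T cell markers was 168 to 200 CPM in Control and 253, 206 and 171 CPM in DB2313 replicates 1, 2 and 3, and none of the 8 was called by edgeR or DESeq2, with 1 at an unadjusted edgeR p under 0.05 and 3 called higher by edgeR without DB2313 replicate 3. The neutrophil markers summed to 4421 to 4973 CPM in Control and 5896, 4903 and 4487 CPM in DB2313 replicates 1, 2 and 3. All 10 were tested, 3 were called higher and none lower, beside 4.66% and 5.94% of all tested genes. The median log2 fold change was 0.2. Those called were Ly6g, Elane and Retnlg, with log2 fold changes of 0.56, 0.69 and 0.51. The other 7 were not called, with Camp at -0.29 and Ngp at -0.01. From 2 to 6 neutrophil markers were called higher when a library was left out, and 1 was called lower without DB2313 replicate 1. Of 8 markers of mast cells and basophils 6 were tested and none was called by edgeR or DESeq2, with 0 at an unadjusted edgeR p under 0.05, at summed levels of 2353 to 2545 CPM in Control and 2373 to 2846 CPM with DB2313. Their part in the Siglec results was not tested.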
